A study of Mus musculus with 2 samples.

Results

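Reads of 2 immunoprecipitated DNA libraries from mouse embryonic stem (ES) cells were counted at the control regions of 10 imprinted loci. The regions were fixed mm9 intervals of 5 kb, each named for a gene of its locus, and each was held against the 20 kb on either side of it. They are 10 of 527645 windows of this size laid along chromosomes 1 to 19 and X, and the rule that sets them uses no read count. The intervals were Peg10 (chr6:4695001-4700000), Mest (chr6:30684001-30689000), Peg3 (chr7:6679001-6684000), Snrpn (chr7:67146001-67151000), H19 (chr7:149765001-149770000), Plagl1 (chr10:12808001-12813000), Grb10 (chr11:11923001-11928000), Igf2r (chr17:12932001-12937000), Impact (chr18:13130001-13135000) and Nnat (chr2:157384001-157389000). No mm9 annotation was used here, so exons, introns and CpG islands within them are not given.

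Imprinted genes are expressed from the copy of a single parent. Each cluster depends on a control region where the DNA of 1 parental copy is methylated in the germ line and kept methylated in the embryo, while the other copy stays unmethylated. At 9 of the 10 loci the methylated copy is the maternal one, and at H19 it is the paternal one. At Peg10, Mest, Peg3, Snrpn, Plagl1, Impact and Nnat the control region lies at a promoter of the paternally expressed gene. At Grb10 it lies at an alternative promoter, at Igf2r at the promoter of the antisense transcript Airn, and at H19 it is an insulator bound by CTCF on the unmethylated copy. ES cells in culture are known to lose or gain such methylation at single loci.

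The ES cells were grown with the cytokine LIF and no feeder layer. Neither strain, sex nor genotype is stated in the labels. For the sample labelled H2ABbd, crosslinked and sonicated chromatin was precipitated with a home-made rabbit antibody to this short histone H2A variant (ChIP-seq). For the sample labelled 5mC, sonicated and denatured genomic DNA was precipitated with clone 33D3, a mouse antibody to 5-methylcytosine (MeDIP-seq). Each group is 1 library with no replicate and no input control, so an interval covers only counting error, and a ratio between the libraries compares these 2 libraries and not the conditions. The preparations also differed, with 20 PCR cycles and fragments of 200 to 400 bp for H2ABbd, and 15 cycles and 100 to 400 bp for 5mC. Effects of these differences cannot be told apart from those of the antibody. The deposited file names disagree with the sample titles: the file of the sample titled H2ABbd is named for 5mC, and the reverse. Groups below follow the titles, and every direction rests on them. The libraries held 1397289 (titled H2ABbd) and 8056333 (titled 5mC) distinct read positions.

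The promoter sequences of 5 genes whose control region lies at the promoter are shown, because they carry the CpG sites that an antibody to methylated DNA can reach. They come from RefSeq on GRCm38.p6, run from 250 bases before to 50 after the gene's start in the 5′ to 3′ direction of the gene, and have each CG in capitals. For Mest and Snrpn, which have several entries, the entry with the most CG is given, and for tied entries the one with the lowest start. Positions are chr6:30737800-30738099, plus strand (Mest), chr7:6730370-6730669, minus strand (Peg3), chr7:60005150-60005449, minus strand (Snrpn), chr10:13090582-13090881, plus strand (Plagl1) and chr2:157559828-157560127, plus strand (Nnat), and since the build differs from that of the reads they were not placed within the mm9 intervals.
Mest: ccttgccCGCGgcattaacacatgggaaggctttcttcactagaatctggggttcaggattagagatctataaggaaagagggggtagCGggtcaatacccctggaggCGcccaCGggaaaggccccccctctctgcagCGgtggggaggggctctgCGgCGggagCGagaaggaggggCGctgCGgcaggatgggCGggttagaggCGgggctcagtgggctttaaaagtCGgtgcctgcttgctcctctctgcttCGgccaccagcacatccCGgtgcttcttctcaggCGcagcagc
Peg3: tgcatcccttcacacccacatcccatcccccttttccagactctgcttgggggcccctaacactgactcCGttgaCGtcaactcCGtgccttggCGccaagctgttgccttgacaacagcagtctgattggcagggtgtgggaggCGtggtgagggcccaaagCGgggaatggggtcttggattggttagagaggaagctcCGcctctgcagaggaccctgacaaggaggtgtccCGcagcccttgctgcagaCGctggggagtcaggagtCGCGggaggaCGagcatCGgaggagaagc
Snrpn: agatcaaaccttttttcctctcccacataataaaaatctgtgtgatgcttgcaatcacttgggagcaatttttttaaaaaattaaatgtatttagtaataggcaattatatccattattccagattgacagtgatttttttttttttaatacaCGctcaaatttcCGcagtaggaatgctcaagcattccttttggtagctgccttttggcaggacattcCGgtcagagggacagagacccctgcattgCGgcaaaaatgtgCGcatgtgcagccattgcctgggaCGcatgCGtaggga
Plagl1: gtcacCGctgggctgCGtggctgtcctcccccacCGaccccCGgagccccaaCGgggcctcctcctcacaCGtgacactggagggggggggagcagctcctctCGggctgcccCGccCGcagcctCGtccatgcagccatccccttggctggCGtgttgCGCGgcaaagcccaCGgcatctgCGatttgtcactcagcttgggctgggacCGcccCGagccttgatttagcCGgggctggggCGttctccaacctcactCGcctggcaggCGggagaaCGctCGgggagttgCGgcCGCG
Nnat: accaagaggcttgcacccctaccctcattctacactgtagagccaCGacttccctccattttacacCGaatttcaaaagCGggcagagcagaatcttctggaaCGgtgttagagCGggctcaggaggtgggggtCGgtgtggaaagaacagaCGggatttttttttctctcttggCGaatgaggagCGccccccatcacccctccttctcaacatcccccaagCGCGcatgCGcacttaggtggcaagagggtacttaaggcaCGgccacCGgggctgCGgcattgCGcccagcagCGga

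The Plagl1 promoter held 26 CG, a count reached by 16.9% of the 32851 promoters of the table, whose median was 7. Those of Mest and Nnat each held 17 (31.4% of promoters hold as many), that of Peg3 held 13 (37.9%) and that of Snrpn 7 (52.1%). The hexamer TGCCGC, recognised in its methylated form by ZFP57, a zinc finger protein that keeps methylation at control regions, was searched on both strands. It occurred 2 times in the Mest promoter, 1 time each in those of Snrpn, Plagl1 and Nnat and not in that of Peg3, while 11.6% of all promoters held it and 22.5% of those with 10 or more CG. Of the 10 genes 7 had an entry in the table.

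In the H2ABbd-labelled library 7 of the 10 control regions stood out from their surroundings. Mest, Peg3, Snrpn, Plagl1, Impact, Grb10 and Igf2r had 3.68 to 24.0 times as many distinct reads per kb as their flanks, while Peg10, H19 and Nnat had 0.800 to 1.10 times as many. Over all 5 kb windows with at least 10 flank reads in this library, 12.9% reached 2-fold. Of the control regions 9 meet that flank minimum, and Snrpn, with 3 flank reads, does not. The median of the 10 regions was 5.78-fold against 0.681-fold over 368466 tested windows, of which 21.1% held no read at all. All 7 regions were also denser than each of the 8 windows of 5 kb that make up their flanks, as were 7.12% of all windows. Summed over the 10 regions, 156 distinct reads in the intervals against 260 in the flanks gave 4.80-fold (exact 95% interval 3.91 to 5.88). That interval treats all reads as sharing a common fold and does not cover the spread between regions, from 0.800 to 24.0.

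In the 5mC-labelled library the same regions were raised little or not at all. None reached 2-fold, as did 2.20% of the 512345 windows tested, so this count is near the share of all windows. No region therefore reached 2-fold in both libraries, as did 0.785% of the windows tested in both. At 1.5-fold or more the count was 5, beside 10.5% of windows. Values ran from 0.601-fold at Igf2r to 1.97-fold at Grb10, with a median of 1.49 against 0.967 for all windows. The interval lay above 1 at Peg10, Mest, H19 and Grb10, included 1 at Peg3, Snrpn, Plagl1, Impact and Nnat, and lay below 1 at Igf2r. The share of all windows with such intervals was not computed, so this division only describes the regions. Folds as high as those of Grb10, Mest, Peg10 and H19 were reached by 2.32%, 3.90%, 4.64% and 10.5% of the tested windows. Mest, H19 and Grb10 were denser than each of their 8 flank windows, where 9.55% of all windows are. Summed over the regions, 263 distinct reads against 1571 gave 1.34-fold (1.17 to 1.53), an interval that again leaves out the spread between regions. This library was the deeper, with 75 to 258 flank reads per region against 3 to 54, so its folds had the narrower intervals.

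**Figure D1:**
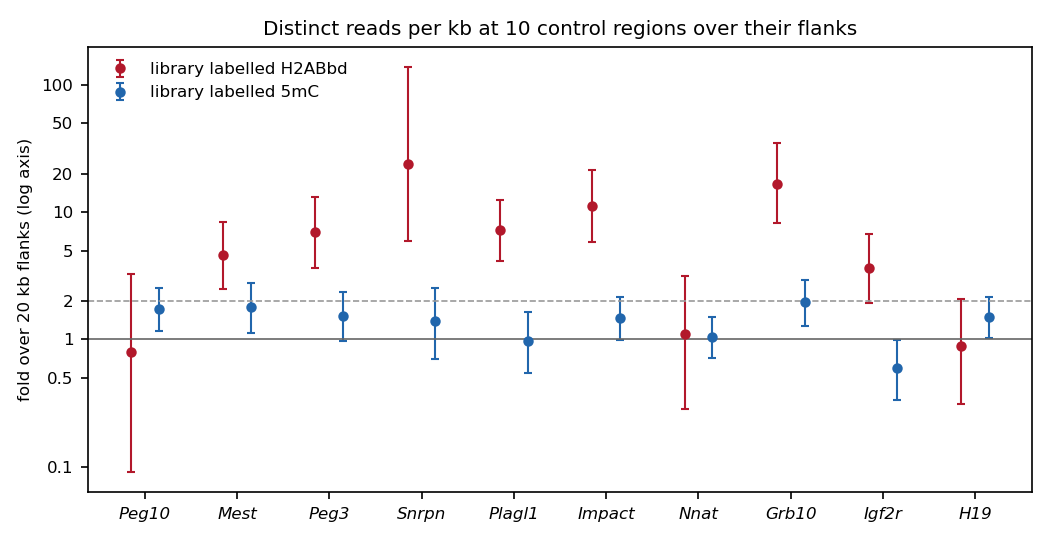
Distinct reads per kb at each control region over those of its 20 kb flanks (log axis), for the H2ABbd-labelled library and the 5mC-labelled library. Points are single libraries, bars are exact 95% intervals for counting error, the solid line is 1 and the dashed line 2: 7 regions of the H2ABbd-labelled library lie above the dashed line, and none of the 5mC-labelled library.

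Single bins of 1 kb were also called, from the same reads, and so are no separate support for the folds above. Enriched bins were those with an adjusted Poisson tail of 0.01 or less that held at least 4 times their chromosome's mean. In the H2ABbd-labelled library the same 7 regions held 1 or 2 enriched bins each. At least 1 such bin lay in 4.43% of the 511118 windows of 5 kb with a read in either library. The densest bin of these regions lay 9.38 (Snrpn) to 44.3 (Plagl1) times above the chromosome mean. In the 5mC-labelled library only Impact held an enriched bin (1.91% of windows did), and it was thus the only region with one in both libraries (0.592% of windows). With bins of 500 bp the region called in the 5mC-labelled library was Grb10 and not Impact (1.73% of windows). Calling took at least 6 or 7 reads on these chromosomes in the H2ABbd-labelled library and 14 to 17 in the deeper library.

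**Figure D2:**
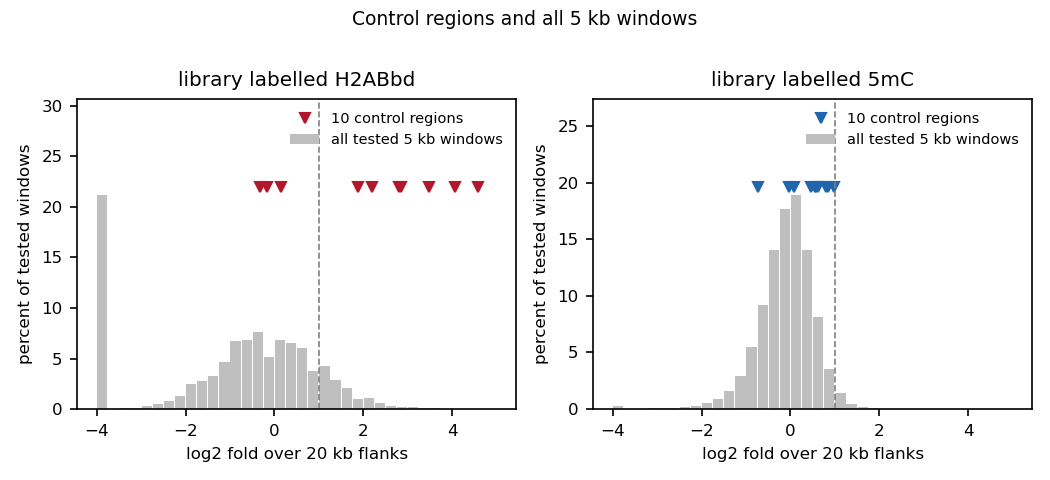
Share of all tested 5 kb windows (percent, bars) by their log2 fold over 20 kb flanks, with the 10 control regions as triangles above. Windows without reads (21.1% in the H2ABbd-labelled library, 0.258% in the 5mC-labelled library) are drawn in the leftmost bar and the dashed line marks 2-fold: 7 triangles lie right of it in the H2ABbd-labelled library and none in the other, where the bars are narrower.

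Among the control regions at promoters of paternally expressed genes, Plagl1 had the largest share of its H2ABbd-labelled reads in 1 bin. Plagl1 encodes a zinc finger transcription factor that restrains growth. Its interval held 27 distinct reads in the H2ABbd-labelled library against 30 in the flanks, 7.20-fold (4.12 to 12.5), and 26 of the 27 fell in bin 3 of its 5 bins of 1 kb, numbered from the lower coordinate. The corresponding 5mC-labelled counts were 16 and 131, 0.977-fold (0.543 to 1.65), with 8 reads in that same bin. The densest kilobase was the same in both libraries. Over the whole 5 kb only the library labelled H2ABbd was raised over the flanks. In the 5mC-labelled library that densest bin lay at 2.31 times the chromosome mean, and the flanks held 3.28 reads per kb. An enriched flank bin of 7 reads in that library lay at chr10:12802001-12803000. The fold in the H2ABbd-labelled library was 7.37 times that in the 5mC-labelled library (3.32 to 16.5).

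Peg3, which encodes a zinc finger protein tied to growth and maternal behaviour, held 20 distinct reads against 23 in the H2ABbd-labelled library, 6.96-fold (3.62 to 13.2). Of these 18 lay in the last 2 bins, with 10 and 8 reads. With 26 reads against 135, the 5mC-labelled library gave 1.54-fold (0.971 to 2.36), spread over the bins as 2, 6, 6, 5 and 7. The ratio of the folds was 4.52 (2.02 to 9.96).

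Mest, which encodes an enzyme-like protein of the mesoderm, held 19 reads against 33 in the H2ABbd-labelled library, 4.61-fold (2.47 to 8.34), with 12 of them in the last bin and 5 in the one before. A second enriched bin of 12 reads lay in its flank, at chr6:30677001-30678000, where the 5mC-labelled library had 2 reads. The interval held 25 reads against 111 in the 5mC-labelled library, 1.80-fold (1.12 to 2.80), with 9 reads in each of the last 2 bins. Both libraries were thus densest at the same end of the interval. The Mest flanks also held 7 bins without a read in either library, as did those of Snrpn. Without these bins the Mest fold in the 5mC-labelled library was 1.49. No interval is given for that value, so the interval above 1 at Mest holds for the full flanks only. With the flank of higher coordinates alone as the reference, the fold in the H2ABbd-labelled library was 10.9 at Mest and 15.4 at Plagl1.

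Snrpn, the gene of a splicing protein at the Prader-Willi and Angelman locus, had the highest fold and the fewest reads of the 7. Its interval held 9 reads in the H2ABbd-labelled library, 6 of them in bin 4, against 3 in all 40 kb of flanks, 24.0-fold with an interval of 5.99 to 138. Against the mean of the autosomes it was 3.31-fold (1.51 to 6.27), since its flanks lay at 0.138 of that mean. Snrpn held 13 reads against 75 in the 5mC-labelled library, 1.39-fold (0.706 to 2.52), with bin 4 again the densest, at 4 reads.

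Impact, which encodes a regulator of translation under amino acid shortage, held an enriched bin in both libraries. It held 25 reads against 18 in the H2ABbd-labelled library, 11.1-fold (5.82 to 21.6), with 15, 8 and 2 in its bins 2, 3 and 4. The 5mC-labelled reads, 33 against 179, gave 1.47-fold (0.985 to 2.15), with 10 and 17 reads in bins 2 and 3 and none in bin 5. Over the central 3 kb that fold was 2.16. Bin 3, at 5.08 times the chromosome mean, was the enriched one. The flank also held an enriched bin of that library, with 15 reads at chr18:13111001-13112000, where the H2ABbd-labelled library had none. Of the 25 reads in the H2ABbd-labelled library 24.0% lay on the forward strand (exact Clopper-Pearson 95% interval 9.36 to 45.1%), the only region in either library whose interval did not include 50%, and 1 position held 7 copies of a read. Strand shares were read at all 10 regions in both libraries and not over all windows, so the strand share of Impact only describes that region.

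At Peg10 and Nnat the H2ABbd-labelled library had few reads and folds close to 1. Peg10, a gene derived from a retrotransposon and needed in the placenta, held 2 reads against 20 in the H2ABbd-labelled library, 0.800-fold (0.0907 to 3.29). Its 33 reads against 151 in the 5mC-labelled library gave 1.75-fold (1.16 to 2.56), with 8, 8, 8 and 9 reads in its last 4 bins and none in its first. An enriched bin of both libraries lay in its flank at chr6:4685001-4686000, with 6 and 14 reads. Nnat, which encodes a small membrane protein of neurons, held 4 reads against 29 in the H2ABbd-labelled library, 1.10-fold (0.282 to 3.14), and 34 against 258 in the 5mC-labelled library, 1.05-fold (0.715 to 1.51). Its interval and flanks in the latter lay at 2.19 and 2.07 times the mean of the autosomes. With the flank of higher coordinates alone, which held 5 reads, the fold of Nnat in the H2ABbd-labelled library was 3.2. Both intervals overlap those of Igf2r and Mest, which began at 1.94 and 2.47, and 2-fold lies within both, so a rise of that size at Peg10 or Nnat was not detectable at this depth.

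Both regions at an alternative or antisense promoter were raised in the H2ABbd-labelled library. Grb10, which encodes an adaptor that damps insulin and growth factor receptors, held 27 reads against 13, 16.6-fold (8.28 to 35.1), with 21 in bin 4 and 5 in bin 3. Grb10 held 31 reads against 126 in the 5mC-labelled library, 1.97-fold (1.28 to 2.93), the highest of the 10 there, and bin 4 was again the densest with 16 reads, where 17 was the lowest count called on that chromosome. Of all windows, 0.0866% reached the fold of Grb10 in the H2ABbd-labelled library and 2.32% in the 5mC-labelled library.

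Igf2r, which encodes a receptor that clears the growth factor IGF2, held 17 reads against 37 in the H2ABbd-labelled library, 3.68-fold (1.94 to 6.69), in 2 adjoining bins of 10 and 7 with none in the other 3. Its interval was poorer than its flanks in the 5mC-labelled library, with 16 reads against 213, 0.601-fold (0.337 to 0.999), and each of the 8 flank windows held more reads. The densities there were 1.03 times the mean of the autosomes in the interval and 1.71 times in the flanks, so the low value came with dense flanks. The libraries thus lay on opposite sides of 1 at Igf2r, with a ratio of the folds of 6.12 (2.63 to 14.1).

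H19, a long noncoding RNA gene, has the only control region of the 10 that is methylated on the paternal copy. In the H2ABbd-labelled library it held 6 reads against 54, 0.889-fold (0.312 to 2.06). They fell as 3, 2 and 1 in its first 3 bins, with none in the last 2. Against the mean of the autosomes H19 was 2.20-fold (0.809 to 4.80), beside flanks at 2.48 times that mean. The neighbouring 5 kb of lower coordinates held 19 reads and included 2 enriched bins, chr7:149762001-149763000 and chr7:149764001-149765000, of 6 reads each, the second of them adjoining the interval. H19 held 36 reads against 192 in the 5mC-labelled library, 1.5-fold (1.02 to 2.15), with 10 in bin 2 and 12 in bin 5. H19 and Peg10 had their point values below 1 in the H2ABbd-labelled library and above 1 in the 5mC-labelled library, but the intervals of their ratios of folds, 0.194 to 1.53 and 0.0496 to 2.05, included 1.

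The exact interval of the ratio of the folds, H2ABbd-labelled over 5mC-labelled, lay above 1 at 7 regions, from 2.56 (1.17 to 5.50) at Mest to 17.3 (3.55 to 108) at Snrpn, and included 1 at Peg10, H19 and Nnat. Of the 368466 windows tested in both libraries, 4.32% had their interval above 1. The 7 are the regions at 2-fold or more in the H2ABbd-labelled library, and since none reached 2-fold in the other, a ratio above 1 was fixed by that count. The call at Mest was lost with flanks of 10 kb (1.63, 0.716 to 3.69), with the flank of lower coordinates alone (1.64, 0.714 to 3.72) and over the central 3 kb (1.57, 0.497 to 4.51). With the 5mC-labelled library thinned to the depth of the other, the interval lay above 1 at Peg3, Snrpn, Grb10, Igf2r and Impact (2.31% of windows) and included 1 at Mest (0.415 to 4.48) and Plagl1 (0.978 to 16.4). Thinning was a single random draw that left no 5mC-labelled read in the Snrpn interval, and other draws were not made. Across the 10 regions the log2 folds of the libraries showed almost no relation (Pearson r = 0.108, Spearman rho = 0.0182, a description over 10 loci that share both libraries). The densest bin was the same in both libraries at 3 regions, Snrpn, Plagl1 and Grb10, as in 30.0% of the windows with reads in both, and adjoining at Mest, Peg3, Igf2r and Impact, as in 29.0%. The 3 of 10 with the same bin are thus a share near that of all windows.

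Reads of the H2ABbd-labelled library lay close together at the regions it raised. The central 80% of its reads spanned 555 bp (Plagl1) to 1397 bp (Mest) at those 7 regions, and 207 to 2470 bp at the other 3, which held 2 to 6 reads. In the 5mC-labelled library the spans ran from 2009 bp (Impact) to 4266 bp (Nnat) over all 10. The 7 were picked by their reads in the H2ABbd-labelled library, and spans were not computed for all windows, so these values only describe the regions. Summed over the 10 regions, 147 of 156 reads (94.2%, exact Clopper-Pearson 95% interval 89.3 to 97.3%) lay between 1000 bp before and 2000 bp after the centre in mm9 coordinates, a stretch chosen after the profile was seen. Of the 5mC-labelled reads 187 of 263 did (71.1%, 65.2 to 76.5%). The densest 500 bp bin reached 11.1 times the flank mean in the H2ABbd-labelled library and 2.14 times in the 5mC-labelled library.

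**Figure D3:**
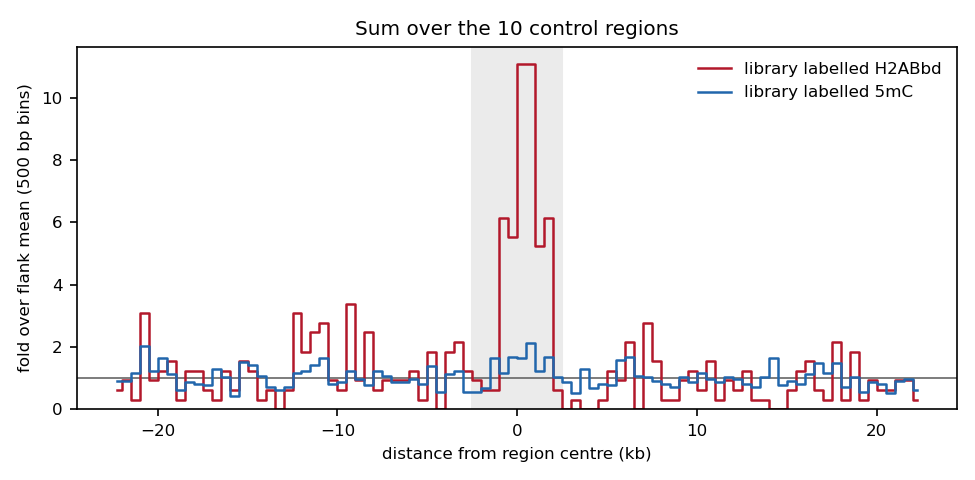
Distinct reads summed over the 10 control regions in 500 bp bins, as a fold over the mean of the flank bins of the same library, against the distance from the region centre (grey, the intervals). The library labelled H2ABbd peaks at 11.1 within the intervals and the 5mC-labelled library at 2.14.

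Forward and reverse strands were even within counting error over the regions as a whole. Of the distinct reads in all 10 intervals 51.3% (43.2 to 59.4%) lay on the forward strand in the H2ABbd-labelled library and 49.0% (42.9 to 55.3%) in the 5mC-labelled library. Reads that repeated a position made up 25% (19.3 to 31.5%) of those in the intervals and 23.1% (18.7 to 27.9%) of those in the flanks in the H2ABbd-labelled library, against 60.1% over the whole library. The 5mC-labelled shares were 2.59% (1.05 to 5.27%) and 4.27% (3.34 to 5.36%), against 13.1% over that whole library. In both libraries the interval of the share in the regions overlapped that of the flanks. Without an input library, precipitation and copy number cannot be told apart. Control regions are rich in CG, and windows of like CG content were not compared. Which of the title and the file name gives the antibody of a library was not tested.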

How the data were processed

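Each line of the deposited files is 1 aligned read of 42 bp, given by mm9 position and strand, with no other measurement. Per the submitters' processing notes reads were checked with FastQC and aligned with Bowtie. Their versions, and how reads with several positions were handled, are not stated there. The deposited score column is 255 on every line and was not used. Lines with broken separators (8 and 1) were left out. Of the aligned reads, 3503839 (labelled H2ABbd) and 9266471 (labelled 5mC), each chromosome, 5′ end and strand was counted once and moved 100 bp towards the 3′ end.

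A fold is the reads per kb of a 5 kb interval over those of its 20 kb flanks. Its interval comes from the exact Clopper-Pearson interval of the share of reads in the interval, and that of a ratio of folds from the exact conditional odds ratio, all at 95%. The background is the same measure over the 5 kb windows with at least 10 flank reads, 368466 in the H2ABbd-labelled library and 512345 in the other. Shares for enriched bins are over the 511118 windows with a read in either library. Enriched 1 kb bins passed a Benjamini-Hochberg adjusted Poisson tail of 0.01 over the bins that held any read, used as a filter, and 4 times the chromosome mean. That mean was taken over the chromosome's bins with a read in either library. Reads are PCR copies without molecular identifiers, so counting error is not the whole error. All 10 regions are named. The regions, lists and settings were chosen with earlier results of these data known. The fold and its interval were tested on simulated Poisson counts around an even mean, which does not cover the uneven coverage of these libraries. Other imprinted loci were not analysed here, as no mm9 annotation was used. Python 3.11.15, numpy 2.4.6, scipy 1.17.1, pandas 2.3.3 and matplotlib 3.10.9 were used.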

Additional observations from a re-analysis of the deposited data

How the results depend on the processing

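All 54 alternatives fixed beforehand were run, and 1 that leaves out flank bins empty in both libraries was added after the data were seen. In the H2ABbd-labelled library the count of regions at 2-fold or more stayed between 6 and 8 of 10, beside 1.70% to 27.1% of all windows. It was 8 with the flank of higher coordinates alone (9.97% of windows), against the mean of the autosomes (16.3%) and without the 4 densest flank bins (27.1%). Between 6 and 7 regions had an enriched bin, beside 1.49% to 5.40% of windows, and the median fold lay between 4.47 and 11.4. In the 5mC-labelled library the count at 2-fold or more, 0 as reported, was 1 with the flank of lower coordinates alone, 2 with flanks of 10 kb, with flanks of 50 kb or thinned to the depth of the other library, 3 without the 4 densest flank bins or over the central 3 kb, 4 against the mean of the autosomes, and 5 at 1.5-fold. The share of all windows past 2-fold was 3.37%, 3.13%, 1.79%, 10.6%, 6.87%, 3.88% and 5.41% under these settings in that order, and 10.5% passed 1.5-fold. Its median fold was 1.83 against the mean of the autosomes, and no region had an enriched bin at an adjusted 1e-05, at 8 times the mean or thinned (0 in each, beside 0.714%, 0.233% and 0.098% of windows). The Igf2r fold of that library turned to 1.03 against the mean of the autosomes, and the H19 fold to 0.821, from 4 reads, when thinned. Thinning left 0 to 7 reads per region and also moved Mest to 3.5-fold, Plagl1 to 2-fold, Impact to 0.615-fold and Snrpn to 0. Of 238 finite folds of single regions 222 stayed within their interval, as did 115 of 117 finite ratios of folds. Intervals from few reads are wide, as at Snrpn in the H2ABbd-labelled library (5.99 to 138), so staying within them says little about stability. Infinite values, all at Snrpn, were left out. Some of the counted values could not move. Folds of the H2ABbd-labelled library do not depend on thinning the other library, and leaving out empty flank bins cancels in a ratio. The cause of these shifts was not tested. With 1 library per group no replicate could be left out, and depth limits the H2ABbd-labelled library most, where 3 to 54 flank reads set each fold. No paired analysis was possible because each group is 1 library.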
